A study of Mus musculus with 16 samples.

Results

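The transcripts described here are those in which CLIP peaks of CTCF could be assigned to a parental allele often enough to compare the alleles. CLIP peaks mark RNA that was joined to a protein by UV light and recovered with it, and the deposited allelic lists name some of them as cas and others as mus. A transcript was kept where at least 10 allelic peaks fell on its own strand. Of 41282 autosomal transcribed regions on both strands, 574 met this minimum. Regions on the minus strand outside chromosome 13 had no allelic list and could not meet it. Of the 574, 416 came from the plus strand of all 19 autosomes, which the allelic lists of 1 library cover (day 0 replicate 1). The other source was chromosome 13, which the lists of all 4 UV libraries cover on both strands, with 178 transcripts, and 20 were in both.

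The cells were female mouse embryonic stem (ES) cells labelled as strain CAST/Ei x 129/Sv/Jae, a cross between distant mouse strains. The CLIP groups are UV-irradiated cells at day 3, kept without LIF and not attached for those days (2 libraries), and at day 0, kept attached with LIF (2 libraries). Anti-Flag M2 beads were used for the pull-down at both days, and nuclear RNA-seq has 1 library a day. LIF is the cytokine that holds mouse ES cells undifferentiated. The labels do not say whether replicates were separate cultures, so every p-value over libraries measures only the spread between these samples. The sources used here do not say which strain the names cas and mus stand for, nor whether the tagged CTCF was made from a transgene. CLIP libraries without UV, the control for RNA recovered without crosslinking, were not analysed here, so no background level stands beside the counts.

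CTCF, a protein with many zinc fingers, sits on DNA, anchors chromatin loops together with cohesin, and has also been found on RNA. In a cell from a cross of distant strains, RNA made from each parental chromosome can be told apart where the read crosses a sequence difference between the strains. Most autosomal genes are transcribed from both alleles. Imprinted genes are transcribed from the allele of 1 parent, and mouse imprinted genes tend to lie in clusters, one of them on distal chromosome 12 with several long noncoding RNAs. The transcript lists pair no gene names with the transcripts, so each is given by its mm9 position and length, and none was assigned to a named gene or cluster.

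A transcript here is a region of rows from the day 3 and day 0 RNA-seq lists joined where they overlap on 1 strand. In day 0 replicate 1 the plus-strand lists held 19232 allelic peaks on the autosomes, 9404 cas and 9828 mus, of which 86.5% lay in a transcript. The chromosome 13 lists held 8704 allelic peaks over the 4 libraries, 4204 cas and 4500 mus, of which 86.7% lay in a transcript. The share of chromosome 13 CLIP peaks that were allelic ranged from 26.9% to 38.4% by library and strand. No peak stood in both allele lists. The lists give no read depth, so the number of peaks sets the precision, and neighbouring peaks in a transcript are not independent. The RNA-seq lists carry no allele, so an allele's share of CLIP peaks cannot be told apart from its share of the RNA. In bulk cells, fewer cells that transcribe an allele and less RNA per cell cannot be told apart either.

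The 416 plus-strand transcripts were balanced as a group and spread widely one by one. Together they held 3897 cas and 3942 mus peaks, a cas share of 49.7%. The median cas share was 50%, the quartiles were 36.4% and 61.5%, and 173 transcripts (41.6%) lay between 40% and 60%. The cas side held 186 transcripts and the mus side 206, with 24 evenly split. All peaks were cas in 3 transcripts and mus in 2.

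In a two-sided exact binomial test against an even split, with Benjamini-Hochberg adjustment over the 3496 plus-strand transcripts with an allelic peak, 10 passed an adjusted p of 0.05, 7 toward cas and 3 toward mus. This is 0.286% of those tested (0.2% toward cas and 0.0858% toward mus). All 10 had at least 10 allelic peaks. At an unadjusted p under 0.05 stood 68 of the 416 (16.3%), 31 toward cas and 37 toward mus, and 107 (3.06%) of all those tested. A transcript with very few peaks cannot reach that p in this test, so these shares cannot be set against each other. Adjusted over the 416 transcripts alone, 18 passed, 10 toward cas and 8 toward mus; since their minimum of peaks was chosen with results known, this count is a setting and not independent evidence. The test rests on 1 library and has no replicate check off chromosome 13. When same-allele peaks within 200 bp of each other were counted as 1, no transcript passed, and the lowest adjusted p of the exact binomial test was 0.116. Just outside the minimum, 75 transcripts with 9 allelic peaks had cas shares of 0% to 88.9%, and just inside it, 55 with 10 had shares of 0% to 100%. No transcript with 9 or 10 peaks passed. With all peaks of 1 allele, the p of the exact binomial test was 0.00391 at 9 peaks and 0.00195 at 10. Given the other p-values, neither could pass after adjustment. The absence of calls at this edge, and below it, therefore does not bear on the minimum chosen.

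**Figure D1:**
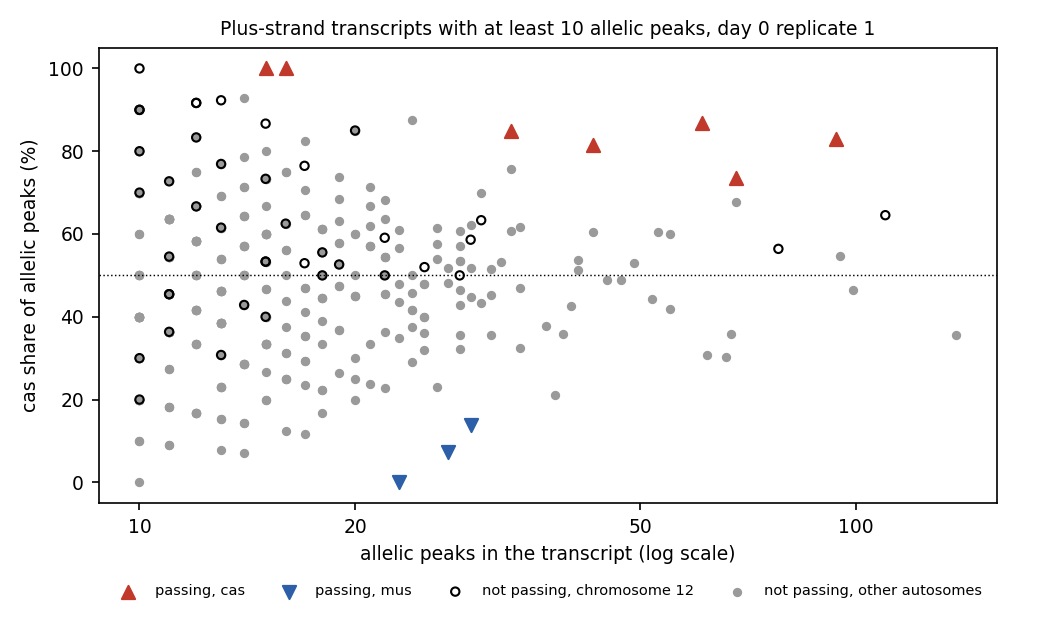
Cas share of allelic CLIP peaks (percent) against the number of allelic peaks (log scale) in each of 416 plus-strand transcripts of day 0 replicate 1. Triangles are the 7 transcripts that passed toward cas and the 3 toward mus, open circles are chromosome 12 and grey dots the other autosomes. The dotted line is 50%, and the spread around it narrows as peaks increase.

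Of the 7 transcripts that leaned to cas, 3 lay close together on distal chromosome 12. The first, 36.7 kb long at 110779211 to 110815894 (mm9, plus strand), had 53 cas and 8 mus peaks, a cas share of 86.9% (exact 95% interval 75.8 to 94.2, adjusted p = 5.22e-06 by the exact binomial test). Next came an 80.9 kb transcript at 110819226 to 110900086, with 78 cas and 16 mus peaks (83.0%, interval 73.8 to 89.9, adjusted p = 2.02e-07). The third, 27.7 kb at 110932705 to 110960407, had 28 cas and 5 mus peaks (84.8%, interval 68.1 to 94.9, adjusted p = 0.0289). Peaks of both alleles were found in each of them, and cas peaks were far more numerous. Counted as sites at least 200 bp apart, they held 27 cas and 5 mus, 43 cas and 12 mus, and 15 cas and 3 mus sites. The cas share of sites was thus 84.4%, 78.2% and 83.3%, close to that of the peaks, while the adjusted p-values of the exact binomial test became 0.198, 0.116 and 1.

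From the first to the last of these 3, over 181 kb, the plus strand held 12 transcripts with an allelic peak. This stretch was chosen after the values were seen, so its sums are a description. It held 190 cas and 37 mus peaks, 83.7% cas. The 9 transcripts that did not pass added 31 cas and 8 mus peaks, with 6 on the cas side, 2 on the mus side and 1 even. One of them, 5.28 kb at 110902927 to 110908203, had 10 cas and 0 mus peaks (adjusted p = 0.379 by the exact binomial test). The transcripts set beside the stretch had few allelic peaks and do not show where the lean ends. The next transcript, 1.61 kb further on at 110962020 to 110987876, had 13 cas and 9 mus peaks (59.1%, unadjusted p = 0.523, exact binomial test). The last one before the stretch, 513 kb away at 110131956 to 110266662, had 3 cas and 7 mus peaks (unadjusted p = 0.344, exact binomial test). The whole window from 110 to 120 Mb, stretch included, held 372 cas and 136 mus peaks (73.2%).

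**Figure D2:**
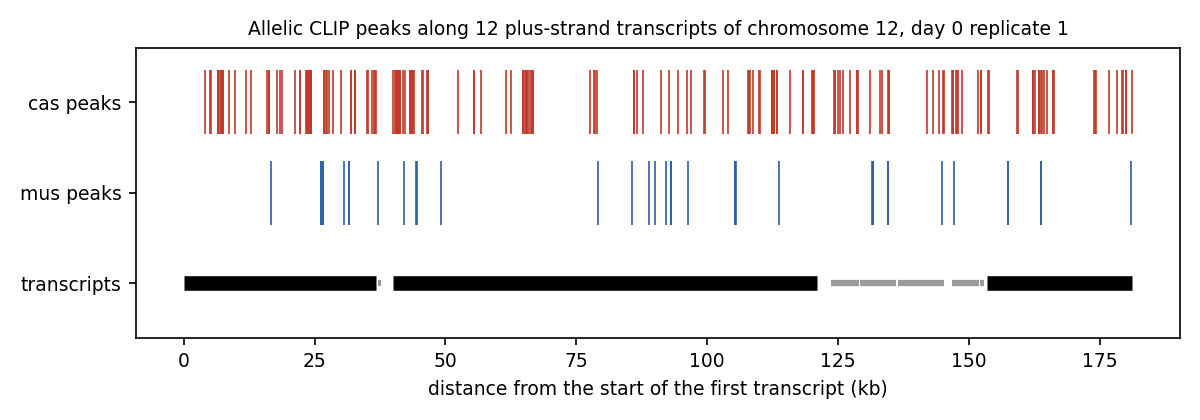
Allelic CLIP peaks of day 0 replicate 1 along 181 kb of the plus strand of chromosome 12, by distance from the start of the first transcript (kb). Upper ticks are the 190 cas peaks and middle ticks the 37 mus peaks. Bars below are the 12 transcripts, with the 3 that passed the exact binomial test in black.

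Chromosome 12 as a whole stood apart in this library. It held 1065 cas and 554 mus plus-strand peaks, a cas share of 65.8%, against 43.8% to 50.6% on each of the other 18 autosomes. Without every peak of the 181 kb stretch the share was still 62.7% (864 cas and 514 mus). The excess was in cas peaks, at 46.7 per transcribed Mb against 18.8 to 26.5 elsewhere, while the 24.3 mus peaks per Mb lay inside the range of 18.9 to 30.9 elsewhere. Of the 45 chromosome 12 transcripts with at least 10 allelic peaks, 34 were on the cas side, 8 on the mus side and 3 even, against 152, 198 and 21 of the 371 on other autosomes. The cas share was over 50% in all 10 Mb windows with at least 50 allelic peaks, from 51.3% to 80%.

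No DNA library of the CLIP cells was used here, so more cas RNA from each copy of chromosome 12 and more cas copies of it cannot be told apart. The full CLIP lists, which ignore alleles, were also dense on this strand. Plus-strand peaks per transcribed Mb were higher on chromosome 12 than on any other autosome in all 4 libraries, at 189 and 278 at day 3 and 197 and 378 at day 0. On the minus strand it ranked 2nd and 3rd at day 3 and 4th and 1st at day 0. An alternative chosen after seeing the data took the chromosome into account. With the cas share of a transcript's own chromosome as the expectation, 5 transcripts passed, and all 4 of chromosome 12 did not. That share counts the peaks of the transcript itself. On chromosome 12 it was 65.8%, against 62.7% without the stretch, so the stretch raised the share it was set against. This setting therefore does not show that its transcripts were like the rest of the chromosome. Those 3 of the stretch and the fourth, 51.1 kb at 84973006 to 85024073 with 35 cas and 8 mus peaks (81.4%, adjusted p = 0.0244 against an even split, exact binomial test), thus passed against an even split but not against the share of their chromosome.

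**Figure D3:**
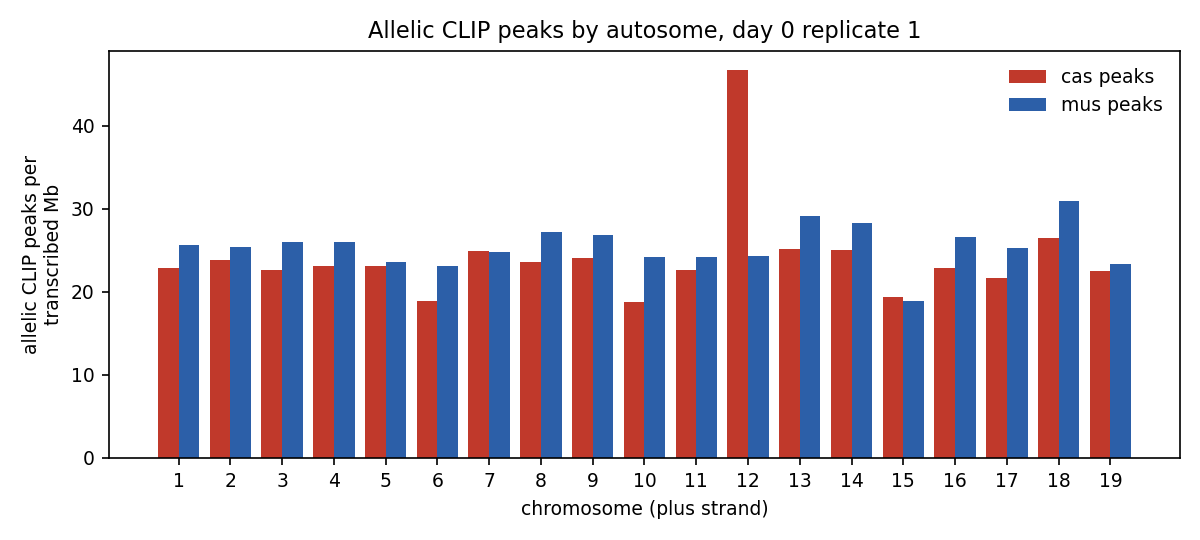
Cas peaks (left bars) and mus peaks (right bars) per transcribed Mb of the plus strand of each autosome in day 0 replicate 1. Chromosome 12 has 46.7 cas peaks per Mb, against at most 26.5 on any other autosome, while its mus bar is within the range of the others.

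The 5 transcripts that passed under both expectations were on chromosomes 1, 2, 3, 11 and 13. A 45.3 kb transcript at 182823239 to 182868531 on chromosome 1 had 0 cas and 23 mus peaks (adjusted p = 0.000278, exact binomial test against an even split). Its mus peaks ran from end to end, from 0.5 kb to 45.1 kb of its length, but formed only 8 sites at 200 bp. All 15 peaks of a 15.3 kb transcript on chromosome 2, at 117937601 to 117952869, were cas (adjusted p = 0.0289, exact binomial test), and they formed 4 sites. A 151 kb transcript on chromosome 11, at 87217948 to 87369325, had 16 cas and 0 mus peaks (adjusted p = 0.0213, exact binomial test) in 12 sites. Its peaks stood apart in the last value column of the allelic list, whose meaning is not given, with a median of 4062 against medians of 10 to 76 in the other named plus-strand transcripts, and the part of this in its lean was not tested. No peak of the other allele was listed in any of these 3. The exact 95% intervals of the cas share reached up to 14.8% for the transcript on chromosome 1, and down to 78.2% and 79.4% for those on chromosomes 2 and 11.

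The remaining ones held both alleles. On chromosome 3 a 61.2 kb transcript at 41359634 to 41420784 had 50 cas and 18 mus peaks (73.5%, adjusted p = 0.0457, exact binomial test). The chromosome 13 transcript, 62.6 kb at 98204925 to 98267541, had 2 cas and 25 mus peaks (7.41%, adjusted p = 0.00494, exact binomial test) and is the only one of the 10 that the other libraries also cover. On chromosome 1, a 151 kb transcript at 63492104 to 63643297 with 4 cas and 25 mus peaks (13.8%) passed against an even split at an adjusted p of 0.0403 (exact binomial test) and did not pass against its own chromosome's share.

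Several other transcripts with low p-values had shares as far from even and did not pass. On chromosome 5, a 76.2 kb transcript at 32913258 to 32989430 had 21 cas and 3 mus peaks (adjusted p = 0.0881, exact binomial test). A 57.9 kb transcript on chromosome 9, at 48792896 to 48850842, had 13 cas and 1 mus peaks. On the mus side, the nearest was a 46.8 kb transcript of chromosome 18 at 85103983 to 85150790. It had 8 cas and 30 mus peaks (21.1%, adjusted p = 0.138, exact binomial test). Further off, a 5.93 kb transcript of chromosome 5 at 104864137 to 104870069 had 1 cas and 13 mus peaks. A 7.17 kb transcript of chromosome 16 at 23107358 to 23114522 had 2 and 15, and a 310 kb transcript of chromosome 1 at 10983431 to 11293763 had 0 and 10. Apart from the 76.2 kb and 46.8 kb transcripts, their adjusted p-values lay between 0.379 and 0.429 by the exact binomial test.

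The 10 transcripts with the most peaks had cas shares of 30.3% to 83.0%, and 3 of them lay between 40% and 60%. They include 2 already given that passed, at 83.0% on chromosome 12 and 73.5% on chromosome 3. The longest list, 138 allelic peaks, belonged to a 725 kb transcript of chromosome 6 at 33199085 to 33923979, with 49 cas and 89 mus (35.5%, interval 27.6 to 44.1, adjusted p = 0.225, exact binomial test). Both chromosome 14 transcripts of these 10 were near 50%, at 46 cas and 53 mus peaks (22316943 to 22491556) and 52 cas and 43 mus (12385695 to 13074555). On chromosome 12, the 1306 kb transcript at 41750487 to 43056575 had 71 cas and 39 mus peaks (64.5%), close to the share of the whole chromosome. On chromosome 7, a transcript at 103358458 to 104059603 had 46 cas and 22 mus peaks and did not pass. Another on that chromosome, far from it and with fewer peaks than these 10, had 19 cas and 43 mus (119822455 to 120050321). It did not pass either. Toward mus and also not passing were a chromosome 1 transcript with 24 cas and 43 mus peaks (33964218 to 34365495) and the chromosome 13 transcript at 114584307 to 114947669 with 20 cas and 46 mus.

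Length and allelic share were set side by side for the transcripts that passed and the rest. On the plus strand the median length of the 10 that passed was 56.1 kb (15.3 to 151 kb), against 110 kb (2.91 to 1480 kb) for the 406 that did not pass. A median of 40.7% of their CLIP peaks was allelic, against 40.8%, with 39.1% in the 7 toward cas and 50.9% in the 3 toward mus. On chromosome 13 the median was 45.8% in the 9 transcripts that passed there with summed peaks, against 37.3% in the other 169. The 10 plus-strand transcripts held a median of 31 allelic peaks, against 14 in those that did not pass, and this number also sets the power of the test. No test was made of these differences.

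Chromosome 13 allows the same question to be asked over libraries. Inside transcripts, cas peaks made up 48.9% (46.4 to 51.4, exact 95% interval) of allelic peaks in day 3 replicate 1 and 46.9% (44.5 to 49.4) in day 3 replicate 2. They made up 47.7% (45.2 to 50.2) in day 0 replicate 1 and 48.9% (47.1 to 50.8) in day 0 replicate 2. The day 3 mean was 0.424 percentage points below the day 0 mean (exact two-sided permutation p = 0.667, where 2 against 2 libraries cannot go below 0.33). The groups overlapped. The 178 transcripts with at least 10 allelic peaks held 3247 cas and 3446 mus peaks (48.5%). Their median cas share was 50%, with quartiles of 41.2% and 60%, and 99 of them (55.6%) lay between 40% and 60%. The cas side held 86, the mus side 78, and 14 were even.

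With the peaks of the 4 libraries summed, 9 chromosome 13 transcripts passed the exact binomial test with Benjamini-Hochberg adjustment over 452 transcripts, 4 toward cas and 5 toward mus. This is 1.99% of those tested (0.885% toward cas and 1.11% toward mus), and all 9 had at least 10 allelic peaks. At an unadjusted p under 0.05 there were 23 of the 178 (12.9%) and 28 (6.19%) of all those tested. Here too, very few peaks keep a transcript from reaching that p, so these shares cannot be set against each other. Leaving out each library in turn left 6 to 8 passing. The 3 with the lowest p-values passed whichever library was left out, and the other 6 each lost the call without at least 1. Counting same-allele peaks of all libraries within 200 bp as 1, an alternative chosen after seeing the data, left 2, both toward mus.

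**Figure D4:**
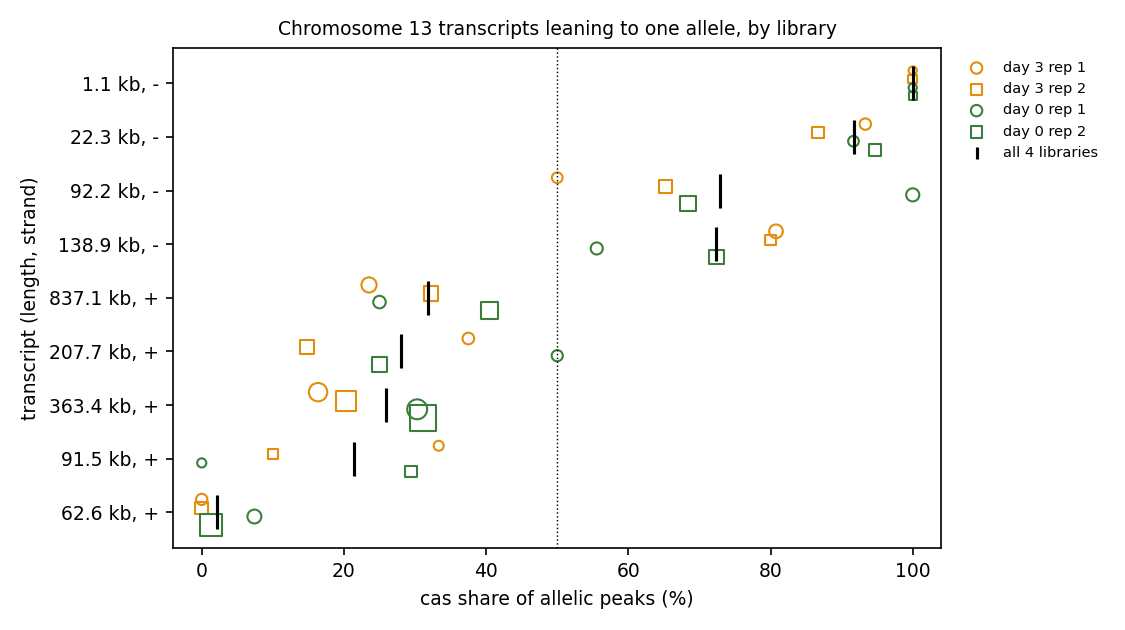
Cas share of allelic CLIP peaks (percent) in the 9 chromosome 13 transcripts that passed with summed peaks, named by length and strand. Circles and squares are the libraries, with area growing with the number of allelic peaks, and the black bar is the share over the 4 libraries. The 62.6 kb, 363 kb, 22.3 kb and 1.1 kb transcripts keep well to 1 side of 50% in every library, while the 92.2 kb and 208 kb transcripts reach 50% in 1 library each.

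The clearest lean on chromosome 13 was toward mus, in the 62.6 kb plus-strand transcript already named. It had 0 cas and 14 mus peaks in day 3 replicate 1, 0 and 21 in day 3 replicate 2, 2 and 25 in day 0 replicate 1, and 1 and 76 in day 0 replicate 2. In sum 3 cas and 136 mus peaks gave a cas share of 2.16% (exact 95% interval 0.447 to 6.18, adjusted p = 5.81e-34, exact binomial test). At 200 bp these formed 24 sites, 8.33% of them cas (adjusted p = 0.00811, exact binomial test). Every library was almost wholly mus, at day 3 and at day 0. Its RNA level, taken as the highest FPKM of the joined rows, was 14.3 at day 3 and 13.5 at day 0, with 1 library each.

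The mus peaks of this transcript were packed into its 3' end. All mus peaks of each of the 4 libraries lay in the last 20 kb, and the 3 cas peaks lay before it, at 31.8, 31.9 and 40.2 kb. This followed where CLIP peaks of any kind were found: 21 of 21 and 49 of 49 peaks of the full day 3 lists, and 51 of 53 and 86 of 87 of the day 0 lists, lay in those 20 kb. The lean thus rests on 1 end of the transcript. The mus run went on beyond it, since the 8 plus-strand transcripts that follow up to 98285097 held 0 cas and 25 mus peaks. This run of 80.2 kb was chosen after its values were seen. None of the 8 passed alone, and each held 1 to 6 peaks.

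**Figure D5:**
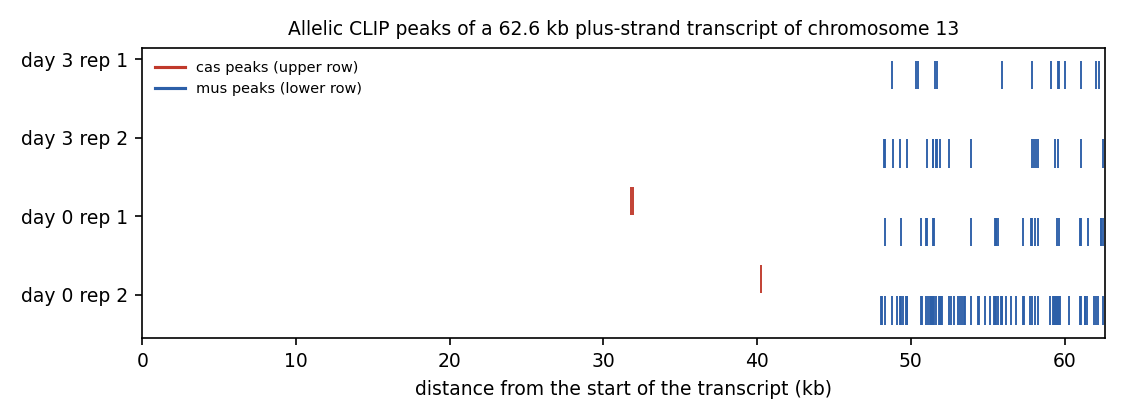
Allelic CLIP peaks along the 62.6 kb plus-strand transcript of chromosome 13 in the 4 UV libraries, by distance from its start (kb). For each library the upper ticks are cas peaks (0, 0, 2 and 1, from top to bottom) and the lower ticks mus peaks (14, 21, 25 and 76). All mus peaks lie in the last 20 kb.

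A 363 kb plus-strand transcript, at 114584307 to 114947669, had the most allelic peaks of all on chromosome 13 and also leaned to mus. There were 9 cas and 46 mus peaks in day 3 replicate 1, 13 and 51 in day 3 replicate 2, 20 and 46 in day 0 replicate 1, and 37 and 82 in day 0 replicate 2. The sum was 79 cas and 225 mus (26.0%, interval 21.1 to 31.3, adjusted p = 4.83e-15, exact binomial test). Unlike in the 62.6 kb transcript, peaks of both alleles were spread over most of its length, the cas peaks from 1.37 to 321 kb and the mus peaks from 1.02 to 362 kb. At 200 bp the cas share of sites was 30.2% (adjusted p = 6.83e-06, exact binomial test). On its own, day 0 replicate 1 did not pass for it (adjusted p = 0.379, exact binomial test over the plus-strand autosomes). The RNA level was 23.0 FPKM at day 3 and 10.1 FPKM at day 0.

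The lean toward cas with the lowest p was in a 22.3 kb minus-strand transcript at 97946046 to 97968349. It had 14 cas and 1 mus peaks in day 3 replicate 1, 13 and 2 in day 3 replicate 2, 11 and 1 in day 0 replicate 1, and 18 and 1 in day 0 replicate 2. The sum was 56 cas and 5 mus (91.8%, interval 81.9 to 97.3, adjusted p = 8.51e-10, exact binomial test). A minus-strand transcript of only 1.1 kb, at 97868192 to 97869296, had cas peaks alone, 3 and 5 at day 3 and 3 and 2 at day 0 (adjusted p = 0.0136, exact binomial test). With overlapping peaks of the libraries counted as 1, its 13 peaks were 4 sites. Both lie before the 62.6 kb transcript, which starts at 98204925, and on the other strand. Between them and it lay a plus-strand transcript at 98010972 to 98022994, with 3 cas and 6 mus peaks, that did not pass. Transcripts of opposite lean thus lay in one part of the chromosome but were not adjacent. A plus-strand transcript of 62.5 kb that spans the 1.1 kb one on the other strand, at 97837194 to 97899647, had 23 cas and 37 mus peaks and did not pass.

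The other transcripts that passed varied more between libraries. A 92.2 kb minus-strand transcript at 99493362 to 99585577 had 6 cas and 6 mus, and 15 and 8, at day 3, and 23 and 0, and 26 and 12, at day 0 (72.9%, adjusted p = 0.00091, exact binomial test). It was even in 1 library and wholly cas in another. A 139 kb minus-strand transcript at 36070666 to 36209590 had 21 cas and 5 mus, and 8 and 2, at day 3, and 10 and 8, and 21 and 8, at day 0 (72.3%, adjusted p = 0.00386, exact binomial test). All its libraries were on the cas side.

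Toward mus, an 837 kb plus-strand transcript at 109906553 to 110743669 had 8 cas and 26 mus, and 10 and 21, at day 3, and 5 and 15, and 19 and 28, at day 0 (31.8%, adjusted p = 0.00323, exact binomial test). A 208 kb plus-strand transcript at 95128660 to 95336349 had 6 and 10, and 4 and 23, at day 3, and 7 and 7, and 8 and 24, at day 0 (28.1%, adjusted p = 0.00326, exact binomial test). A 91.5 kb plus-strand transcript at 109106455 to 109197976 had 3 and 6, and 1 and 9, at day 3, and 0 and 6, and 5 and 12, at day 0 (21.4%, adjusted p = 0.0136, exact binomial test). No library of these 3 was on the cas side. All 5 transcripts that passed toward mus were on the plus strand, and all 4 toward cas on the minus strand. Over the 4 libraries the cas share in transcripts was 45.4% on the plus strand and 51.2% on the minus strand. Without the transcripts that passed it was 50.6% on the plus strand and 49.1% on the minus strand. Those transcripts were chosen by their lean in these same peaks, so taking them out brings the strands together by itself. Where the difference between strands lies was not tested.

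Among those that did not pass, a 44.6 kb minus-strand transcript at 67170336 to 67214917 had 10 cas and 0 mus peaks, 3 and 1 at day 3 and 3 in each day 0 library (adjusted p = 0.0883, exact binomial test). A 45.3 kb minus-strand transcript at 93917355 to 93962633 had 23 cas and 7 mus peaks, and a 171 kb one at 117643631 to 117814323 had 1 cas and 11 mus. Of the 6 transcripts with the most peaks, 2 passed and 4 lay between 40% and 60%. One of these, of 191 kb on the plus strand, at 44826058 to 45017012, had 137 cas and 166 mus peaks (45.2%). In it the libraries did not lean one way, with 29 and 45, and 31 and 26, at day 3, and 33 and 22, and 44 and 73, at day 0. The plus-strand transcripts at 35830394 to 35966416, 36208994 to 36629461 and 9275578 to 9668174 had cas shares of 58.4%, 56.8% and 59.2%.

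Each library was then set against the calls made from the other 3, which did not use it. Transcripts called cas in the other libraries had 20 cas and 7 mus peaks in day 3 replicate 1 (74.1%, exact 95% interval 53.7 to 88.9), 36 and 12 in day 3 replicate 2 (75%, 60.4 to 86.4), 21 and 9 in day 0 replicate 1 (70%, 50.6 to 85.3), and 53 and 19 in day 0 replicate 2 (73.6%, 61.9 to 83.3). Those called mus had 18 cas and 76 mus peaks in day 3 replicate 1 (19.1%), 23 and 93 in day 3 replicate 2 (19.8%), 34 and 93 in day 0 replicate 1 (26.8%), and 62 and 198 in day 0 replicate 2 (23.8%). The sums of the cas calls and of the mus calls thus lay on opposite sides of 50% in every library that had not made them. Each sum rests on 2 to 4 transcripts whose peaks are not independent, and the intervals cover counting error of peaks only. In day 0 replicate 1, 25 and 46 of the 93 mus peaks came from the 62.6 kb and 363 kb transcripts. Transcripts with no call stood between 48.5% and 51.5%. No called transcript, of 2 to 4 per direction and library, turned to the other side in the library left out, and 2 were even there.

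A fit over libraries used limma on log2((cas + 0.5)/(mus + 0.5)), with the libraries as replicates and adjusted p-values over the 183 transcripts with an allelic peak in each library. It called 10 transcripts (5.46%), 6 toward cas (3.28%) and 4 toward mus (2.19%). With a minimum of 10 peaks over the libraries it called 4 of 178 (2.25%), all among the 10. Of the 10, 5 had at least 10 allelic peaks. The mean log2 ratio was -4.83 (SE 0.476, adjusted p = 0.0160) for the 62.6 kb transcript, 3.07 (SE 0.278, adjusted p = 0.0160) for the 22.3 kb one and 2.85 (SE 0.265, adjusted p = 0.0160) for the 1.1 kb one. The 10-peak, all-cas transcript at 67170336 was at 2.50 (adjusted p = 0.0209). An 18.98 kb minus-strand transcript at 55445194 to 55464172, named after its value was seen, was at -2.03 (adjusted p = 0.0167), with 2 cas and 13 mus peaks in sum. It was the one of these 5 that did not pass in the limma fit with a minimum of 10 peaks (adjusted p = 0.0955), where the SE of the 22.3 kb transcript was 0.504. The other 5 had 4 to 8 peaks and the same counts in every library, so their spread was 0. The 363 kb transcript was at -1.64 (adjusted p = 0.0811) and did not pass. Whichever library was left out, no transcript passed this fit.

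The lean did not differ between days beyond the spread of the libraries. In the limma fit of day 3 minus day 0, 0 of 183 transcripts passed (0%), the lowest adjusted p was 0.395, and 11 (6.01%) had an unadjusted p under 0.05. In the 62.6 kb transcript the mean log2 ratio was -5.14 at day 3 and -4.51 at day 0, and in the 363 kb transcript -2.11 and -1.16. In the 22.3 kb transcript it was 2.85 at day 3 and 3.28 at day 0. These transcripts were named for their lean over both days together. Of the 178 transcripts with at least 10 allelic peaks, 10 had both day 3 libraries on 1 side and both day 0 libraries on the other. None of them passed. With 2 libraries a day, a missed threshold does not show that the days are alike.

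Over all the transcripts, the side a transcript leaned to matched only weakly between libraries. With as few as 5 peaks in a library, the side there is uncertain. The part of counting error in the weak match was not tested. Of the 178 transcripts, 156 had allelic peaks in every library, and 20 were on 1 side in all 4, 10 toward cas and 10 toward mus. Of these 20, 7 had passed with summed peaks, a sum over these same libraries, so the overlap is not independent. How many transcripts would keep to 1 side without any lean was not worked out. Over the 6 pairs of libraries, transcripts with at least 5 peaks in both and not even in either leaned the same way in 49.3% to 65.5% of cases, with a mean of 56.3%. Pearson's r of their cas shares was 0.199 to 0.330 over 68 to 93 transcripts, which share libraries and differ in number of peaks. Where allelic peaks of 2 libraries overlapped, both were named for one allele in 86.4% to 95% of overlaps in the transcripts that passed, which these libraries chose, and in 51.0% to 60% of those in the others.

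Allelic CTCF ChIP peaks were counted near the transcripts that passed. The ChIP cells carry another strain label, 129S1/CastEiJ x 129S1, and peaks of 1 day 3 library and 2 day 0 libraries were counted within 100 kb. Around the 7 plus-strand transcripts that leaned to cas in CLIP there were 0 cas and 135 mus ChIP peaks, and around the 3 that leaned to mus, 1 and 70. On chromosome 13 there were 23 cas and 23 mus ChIP peaks around the 4 transcripts that leaned to cas, and 34 and 38 around the 5 that leaned to mus. Peaks near neighbouring transcripts were counted for each of them. Over the whole chromosomes the cas share of allelic ChIP peaks was 48.1% on chromosome 13, and 0.322% to 10.6% on chromosomes 1, 2, 3, 11 and 12, so with almost no cas ChIP peaks on most of those chromosomes the plus-strand counts do not bear on the CLIP lean. No test was made across the differing strain labels.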

How the data were processed

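CLIP peaks, transcripts and ChIP peaks were used as deposited by the authors, on build mm9, with 1 list per library. The submitters' processing notes name Cufflinks 2.1.1, bedtools 2.17.0, SAMtools 0.1.18, Novoalign 3.00.03, TopHat2 2.0.8, cutadapt 1.0 and Trim Galore 0.3.3, with no role or order. The peak caller and the rule for assigning alleles are not given in the sources used here, and a mapping bias toward 1 allele was not tested. A score per peak stands in the peak lists deposited by the authors, and it served only to select peaks in an alternative. Further score columns of the allelic lists have no stated meaning, and a value of 10000 in one of them was taken as a peak with reads of a single allele. The level in the deposited transcript lists was read as FPKM, the unit of Cufflinks, and can be very high for a very short row.

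Rows of both transcript lists that overlapped by at least 1 bp on 1 strand were joined. Each allelic peak was given to the same-strand region it overlapped by at least 1 bp. Cas and mus peaks were compared by a two-sided exact binomial test against 0.5, with Benjamini-Hochberg adjustment over all transcripts with an allelic peak and a threshold of 0.05, and over libraries with limma 3.58.1 (R 4.3.3). Intervals are exact 95% (Clopper-Pearson) and cover counting error of peaks only. SciPy 1.17.1 and statsmodels 0.14.6 were used, and the tests were tested on simulated data. Named transcripts are the 10 per direction with the smallest p and the 10 with the most peaks on the plus strand, and 6 of each on chromosome 13, some given only within ranges. The transcripts, the minimum of 10 peaks and these rules were chosen with earlier results of these data known. Alternatives covered the unit counted, the expected share, neighbouring peaks, peak score, the minimum of peaks, the overlap rule, the pseudocount and leaving out each library. Gene names and sequences were not used here.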

Additional observations from a re-analysis of the deposited data

How the results depend on the processing

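Of the plus-strand transcripts 10 passed, and 10 or 11 did with day 0 rows as the unit, the library's own cas share, peak midpoints or single-allele peaks only. The count was 4 with peaks at or above the median score, 18 when only transcripts with at least 10 peaks were adjusted and 18 with at least 20, 0 with same-allele peaks within 200 bp as 1, and 5 against the own chromosome's share. Single-allele peaks and the own chromosome's share were chosen after seeing the data. No replicate could be left out there, since 1 library lists these autosomes. On chromosome 13, 9 passed with summed peaks, and the count was 5 with day 3 rows and libraries, 4 with day 0 rows and libraries, 4 at or above the median score, 2 at 200 bp and 6 to 8 without 1 library; 6 to 10 passed in the other alternatives. In the fit over libraries 10 passed with either pseudocount, 4 of 178 with a minimum of 10 peaks in all, and 0 whichever library was left out. The day difference stayed at 0 passing throughout, 0 with the replicate block (lowest adjusted p by limma 0.940). Replicate numbers were not shown to pair the libraries: deviations of same-numbered libraries had a correlation of -0.0343 over 178 transcripts. The day difference in cas share ranged from -1.39 to 0.539 percentage points without 1 library and was -0.917 at or above the median score. Where a named transcript passed in the main run or in an alternative, it lay on the same side in both. The sides of named transcripts that passed in neither were not compared. The number of independent sites limits every call, and the cause of the lost calls was not tested beyond fewer peaks or libraries.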
